A study of Mus musculus with 6 samples.

Results

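The miR-1, miR-133 and miR-206 clusters supply the muscle miRNAs of the mouse, and 8 of their mature names were looked up in a table of 2009 miRNA names by exact match. They are mmu-miR-1a-3p, mmu-miR-1b-5p, mmu-miR-1a-1-5p, mmu-miR-1a-2-5p, mmu-miR-133a-3p, mmu-miR-133a-5p, mmu-miR-133b-3p and mmu-miR-206-3p, and the table held all 8. The 6 libraries came from hearts of male mice, isolated and perfused on a Langendorff apparatus, which feeds the heart through the aorta. In the 3 ischemia and reperfusion (I/R) hearts a cardioplegic solution stopped the beat for 30 min, and 1 h of reperfusion followed. The 3 sham hearts were perfused in the same way and went on beating. The labels give no strain or age, and number the hearts of each group 1 to 3 as biological replicates.

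MicroRNAs are short RNAs cut as a 5p and a 3p arm from a hairpin, and the seed near the 5′ end of the loaded arm pairs with target mRNAs. miR-1 and miR-133 are made from shared transcripts in heart and skeletal muscle under myogenic factors, where they repress mRNAs that oppose or balance muscle differentiation. miR-206 and miR-133b come from a related cluster that is best known from skeletal muscle.

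The sequences below show what sets the names apart, with bases 2 to 8, the seed, in capitals. RefSeq (GRCm38.p6) gave a mature sequence for 3 of the 8 names.
mmu-miR-206-3p: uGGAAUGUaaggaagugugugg
mmu-miR-133b-3p: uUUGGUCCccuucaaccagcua
mmu-miR-1a-1-5p: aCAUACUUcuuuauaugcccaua
The seed GGAAUGU of miR-206-3p is the one for which the miR-1 and miR-206 family is known. Among 1679 mature names in the RefSeq table, 2 others carried it, miR-6349 and miR-6382, and the seed UUGGUCC of miR-133b-3p was carried by no other listed name. Neither miR-1a-3p nor miR-133a-3p had a sequence there, so the search could not cover them. A seed with no other listed name is thus not shown to be unique. The hairpins of the miR-206 and miR-133b cluster are printed in full, with both arms in capitals, because reads of only 1 arm of each were found in quantity.
Mir206: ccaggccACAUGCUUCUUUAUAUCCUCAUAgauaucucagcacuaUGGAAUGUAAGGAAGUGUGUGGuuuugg
Mir133b: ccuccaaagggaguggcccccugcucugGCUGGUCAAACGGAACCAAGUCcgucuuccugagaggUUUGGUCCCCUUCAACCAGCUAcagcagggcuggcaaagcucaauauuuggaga
Between miR-1a-1-5p and the 5p arm of Mir206, 20 of 23 positions were the same, and the substitutions A5G, G17C and C19U, counted from the 5′ end, set them apart.

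The hairpins lie in 3 clusters (GRCm38, GENCODE M21). Mir206 (chromosome 1, 20679010 to 20679082, plus strand) and Mir133b (20682769 to 20682887, plus strand) are 3.69 kb apart, and each overlaps an exon of the lincRNA gene Gm28653 on the same strand. Mir1a-1 (chromosome 2, 180389048 to 180389124, plus strand) and Mir133a-2 (180398379 to 180398482, plus strand) are 9.25 kb apart and overlap no other annotated gene.

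Mir1a-2 (chromosome 18, 10785481 to 10785552, minus strand) and Mir133a-1 (10782909 to 10782976, minus strand) are 2.50 kb apart, inside an intron of the host transcript Mir133a-1hg, and the protein-coding gene Mib1 has an intron on the other strand. Mir1b (10785446 to 10785567) lies on the plus strand there and covers all 72 bases of Mir1a-2. No source used here says whether reads were counted by strand, so miR-1b-5p and miR-1a-3p cannot be told apart safely.

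Depth as counted was 7874103 to 8196102 reads on named miRNAs in the I/R libraries and 8099411 to 9197869 in the sham libraries. Levels are reads per 1000000 such reads (RPM), which are the deposited values divided by 1 constant, the same for every name and library whatever the length of the miRNA. An absence of reads allowed up to 3 reads, or 0.326 to 0.381 RPM depending on the library, and such limits cover counting error only. Defining miRNAs of heart muscle were present in every library. miR-208a-3p and miR-499-5p, from introns of heart myosin genes, were at 147 to 169 and 5310 to 6248 RPM in I/R hearts and at 162 to 181 and 5217 to 5913 RPM in sham hearts.

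The 8 names spanned more than 6 orders of magnitude on the RPM scale, in the same order of group means in I/R as in sham hearts. miR-1a-3p ranked first and miR-1b-5p second in every library, while miR-133a-3p ranked between 33 and 55, miR-133a-5p between 67 and 73, miR-133b-3p between 142 and 186 and miR-206-3p between 208 and 236. Ranges over the 6 hearts did not overlap between neighbours in this order, except between miR-1a-1-5p and miR-1a-2-5p at the bottom. Hairpins that share a transcript therefore had very unequal read levels, and miR-1a-3p stood 210 to 440 times above miR-133a-3p within a library, taken as a ratio of RPM + 1. How reads that match several hairpins were shared is not given, so this is a ratio of reads and not of molecules.

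**Figure D1:**
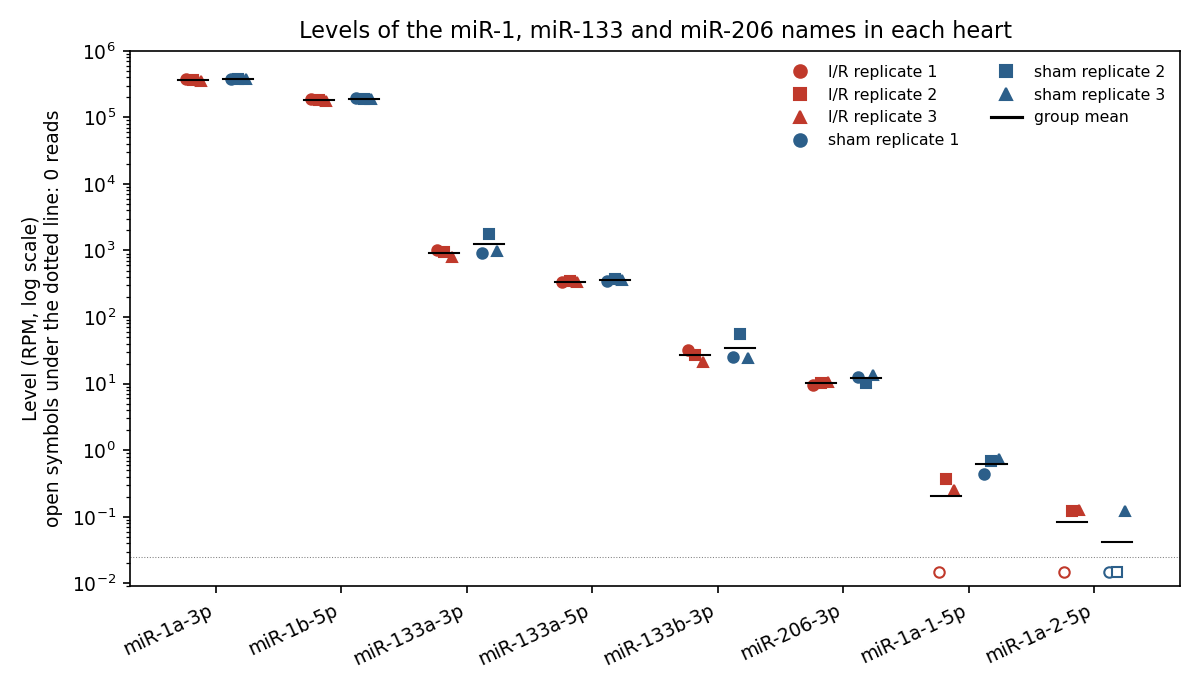
Level of each name (RPM, log axis) in each heart, with I/R hearts in red left of sham hearts in blue, a symbol per replicate and a bar at the group mean. Levels run from 380232 RPM, the sham mean of miR-1a-3p, to a few reads for the 5p arms of miR-1a, and the sham replicate 2 symbol stands above its group for miR-133a-3p and miR-133b-3p.

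miR-1a-3p, the main miR-1 of heart muscle, was lower in each I/R heart than in each sham heart, by a few percent. It stood at 375821, 367970 and 351573 RPM in I/R replicates 1 to 3, against 382877, 378281 and 379538 RPM in sham replicates 1 to 3. The sham hearts lay close together, with a coefficient of variation of 0.625%, while that of the I/R hearts was 3.39%. limma's log2 fold change was -0.059 (SE 0.041, 95% interval -0.15 to 0.033, n = 3 each) with a Benjamini-Hochberg adjusted p of 0.661. Without I/R replicate 3, the lowest heart, it was -0.032.

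miR-1b-5p followed miR-1a-3p in a fixed proportion in every library. It was at 187971, 183881 and 175836 RPM in I/R hearts, against 191757, 188984 and 189657 RPM in sham hearts. The share of miR-1a-3p in the sum of both was 66.66, 66.68 and 66.66% in I/R hearts and 66.63, 66.69 and 66.68% in sham hearts (exact permutation p = 1). Its values were thus not treated as a second measurement, and both names summed into 1 row gave the same log2 fold change of -0.059 (limma adjusted p = 0.671). Over all libraries that share was 66.67%. Mir1a-1 and Mir1a-2 both carry miR-1a-3p, and Mir1b, which covers Mir1a-2 on the other strand, carries miR-1b-5p. The sources used here do not say whether a read was counted at more than 1 of Mir1a-1, Mir1a-2 and Mir1b. Whether the fixed proportion comes from counting the same reads at each of these hairpins was not tested. The rank of miR-1b-5p and the summed level of both names are therefore uncertain.

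As counted, both names together held most of the reads of each library, so their share bears on the level of all other miRNAs on the RPM scale. The share was 56.4, 55.2 and 52.7% in I/R replicates 1 to 3 and 57.5, 56.7 and 56.9% in sham replicates 1 to 3, with 95% Wilson intervals narrower than 0.1 points. The I/R hearts all lay below the sham hearts. The difference was -2.27 percentage points (54.8 ± 1.85% and 57.0 ± 0.38%, SD, n = 3 each), with an exact two-sided permutation p of 0.1, the smallest that 3 against 3 hearts allow, and 0.45 after adjustment over 9 shares and ratios. With hearts paired by replicate number, I/R was lower in 3 of 3 pairs, and exact sign flips gave p = 0.25, the smallest that 3 pairs allow. Groups that do not overlap give this outcome under any pairing, so it adds nothing to the values above. Without I/R replicate 3 the difference was -1.25 points, and all 8 names together gave -2.30 points. Were the share lower in I/R hearts, fewer muscle cells, less miR-1 per muscle cell and more reads of other miRNAs could not be told apart in whole hearts. The 8 muscle names from hairpins outside the clusters summed to 8682 to 9504 RPM in I/R hearts and 8126 to 9483 RPM in sham hearts.

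Of 5 lists of miRNAs known from other cell types, 3 had their highest sum in I/R replicate 3, the heart with the lowest miR-1 share, and 2 did not. I/R replicate 3 had 31932 RPM of 4 endothelial names, 50906 RPM of 4 smooth muscle names and 31238 RPM of 4 fibroblast names. The other I/R hearts had 25929 and 26976, 42106 and 42621, and 24351 and 26444 RPM. The sham hearts had 24976 to 27579, 36592 to 47645 and 20322 to 24731 RPM. Each of these sums was mostly 1 abundant name, miR-126a-3p, miR-143-3p or miR-21a-5p, and I/R replicate 3 was the highest heart for 2, 2 and 3 of the 4 names of the 3 lists, while miR-143-5p was lowest there with 19.8 RPM. The sum of 5 leukocyte names was 122 RPM in I/R replicate 3, 119 to 120 RPM in the other I/R hearts and 109 to 144 RPM in sham hearts. The sum of 3 red blood cell names was lowest in I/R replicate 3, at 1.65 RPM, against 2.20 and 5.26 RPM in the other I/R hearts and 3.33 to 6.96 RPM in sham hearts. No name of the 5 lists was at 0 in every library, and the part of these cells in the lower miR-1 share was not tested.

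**Figure D2:**
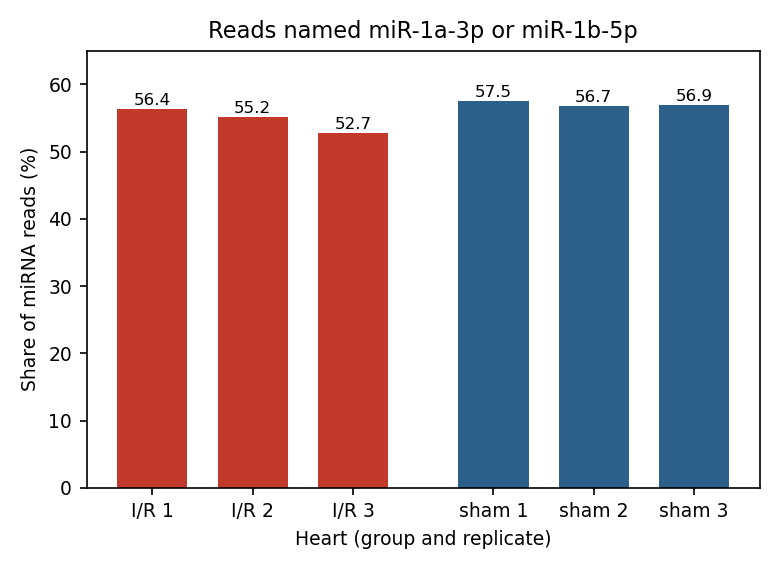
Share of all miRNA reads as counted (%) that carried the name miR-1a-3p or miR-1b-5p, a bar per heart, I/R in red and sham in blue. The bars stand at 56.4, 55.2 and 52.7% in I/R hearts and at 57.5, 56.7 and 56.9% in sham hearts.

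The 5p arms of miR-1a, the strands usually discarded, were close to undetected. miR-1a-1-5p had 0, 3 and 2 reads in I/R hearts and 4, 6 and 6 reads in sham hearts, which is 0.207 ± 0.188 and 0.618 ± 0.162 RPM (SD, n = 3 each). miR-1a-2-5p had 0, 1 and 1 reads in I/R hearts and 0, 0 and 1 reads in sham hearts. Both failed the filter of a mean of 1 RPM and were not tested singly. Set against miR-1a-3p, their summed log2 ratio was -18.13 ± 0.34 in I/R and -17.81 ± 0.20 in sham hearts (exact permutation p = 0.3, adjusted p = 0.675), a measure that is set by the pseudocount of 1 RPM at such counts. The opposite arms of Mir1b, Mir133b and Mir206 were as scarce, with 7 and 5 reads of miR-1b-3p over the I/R and the sham hearts, 0 and 1 of miR-133b-5p and 0 and 2 of miR-206-5p. The name miR-133c, listed beside them, had 0 reads in every library.

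miR-133a-3p, which is encoded next to miR-1a and is known to restrain cardiac growth, had the lowest fold change of the 6 names tested, and 1 sham heart decided it. It was at 1006, 952 and 798 RPM in I/R replicates 1 to 3, against 902, 1798 and 993 RPM in sham replicates 1 to 3. The groups overlapped, and sham replicate 2 stood above all others. The log2 fold change was -0.36 (SE 0.23, 95% interval -0.89 to 0.17, n = 3 each, limma adjusted p = 0.661), and without sham replicate 2 it was -0.049 (limma adjusted p = 0.895).

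The 5p arm of the same hairpins did not share that excess. miR-133a-5p was at 330, 349 and 332 RPM in I/R hearts, against 351, 369 and 357 RPM in sham hearts. The I/R hearts lay below the sham hearts by a small step, with a log2 fold change of -0.091 (SE 0.095, 95% interval -0.31 to 0.12, limma adjusted p = 0.791). Its coefficient of variation was 3.01% in I/R and 2.63% in sham hearts, against 11.7% and 40.1% for miR-133a-3p. The 5p arm over the 3p arm gave log2 ratios of -1.60, -1.45 and -1.26 in I/R hearts and -1.36, -2.28 and -1.47 in sham hearts, so that sham replicate 2 had the smallest 5p share of all 6. The difference of 0.27 gave an exact permutation p of 0.6 (adjusted p = 0.9) and was -0.022 without sham replicate 2.

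miR-133b-3p, which is known to match miR-133a-3p up to its 3′ end, followed it across the hearts. It was at 31.8, 27.3 and 21.0 RPM in I/R replicates 1 to 3, against 24.7, 55.9 and 24.0 RPM in sham replicates 1 to 3. Sham replicate 2 was again the highest and I/R replicate 3 the lowest of the 6 hearts, as for miR-133a-3p, and the groups overlapped. The log2 fold change was -0.28 (SE 0.31, 95% interval -0.98 to 0.42, limma adjusted p = 0.792), and it turned to 0.11 without sham replicate 2 and was -0.12 without I/R replicate 3.

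The share of miR-133b-3p in the sum of both miR-133 3p names was narrow. It was 3.07, 2.79 and 2.56% in I/R hearts and 2.66, 3.02 and 2.36% in sham hearts (for the complement, exact permutation p = 0.7, adjusted p = 0.9). The 95% Wilson intervals of the outermost hearts, 2.72 to 3.46% in I/R replicate 1 and 2.05 to 2.71% in sham replicate 3, did not overlap, but such intervals cover counting error only, not the spread between hearts. How reads that match near-identical names were assigned is not given in the sources used here, so the level of miR-133b-3p is uncertain. Both names summed gave a log2 fold change of -0.36 (limma adjusted p = 0.655).

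miR-206-3p, the skeletal muscle relative of miR-1, had reads in every heart, at 9.64 to 13.3 RPM. It was at 9.64, 10.1 and 10.4 RPM in I/R hearts, from 79, 83 and 82 reads, against 12.7, 10.2 and 13.3 RPM in sham hearts. Sham replicate 2 lay among the I/R hearts, and the other sham hearts lay above them. The log2 fold change was -0.23 (SE 0.15, 95% interval -0.58 to 0.12, n = 3 each, limma adjusted p = 0.661), and with a pseudocount of 10 RPM it was -0.13. Relative to miR-1a-3p the log2 ratio was -15.01 ± 0.099 in I/R and -14.84 ± 0.19 in sham hearts (exact permutation p = 0.3, adjusted p = 0.675). As a ratio of RPM + 1, miR-1a-3p stood 26478 to 35326 times above miR-206-3p. How reads close to several names were assigned is not given. Whether reads of miR-1a-3p were named miR-206-3p was not tested, so the level of miR-206-3p is uncertain.

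The neighbours miR-133b-3p and miR-206-3p did not move together, where both levels are uncertain as said above. Their log2 ratio was 1.63, 1.34 and 0.94 in I/R hearts and 0.90, 2.35 and 0.80 in sham hearts. Sham replicate 2 held the highest miR-133b-3p and the lowest miR-206-3p of the sham hearts. The difference between groups was -0.047 (exact permutation p = 1), and without sham replicate 2 it was 0.45. For the other cluster, the log2 ratio of miR-133a-3p to miR-1a-3p was -8.64 ± 0.12 in I/R and -8.34 ± 0.55 in sham hearts (exact permutation p = 0.5, adjusted p = 0.9), and the difference of -0.30 became 0.014 without sham replicate 2.

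**Figure D3:**
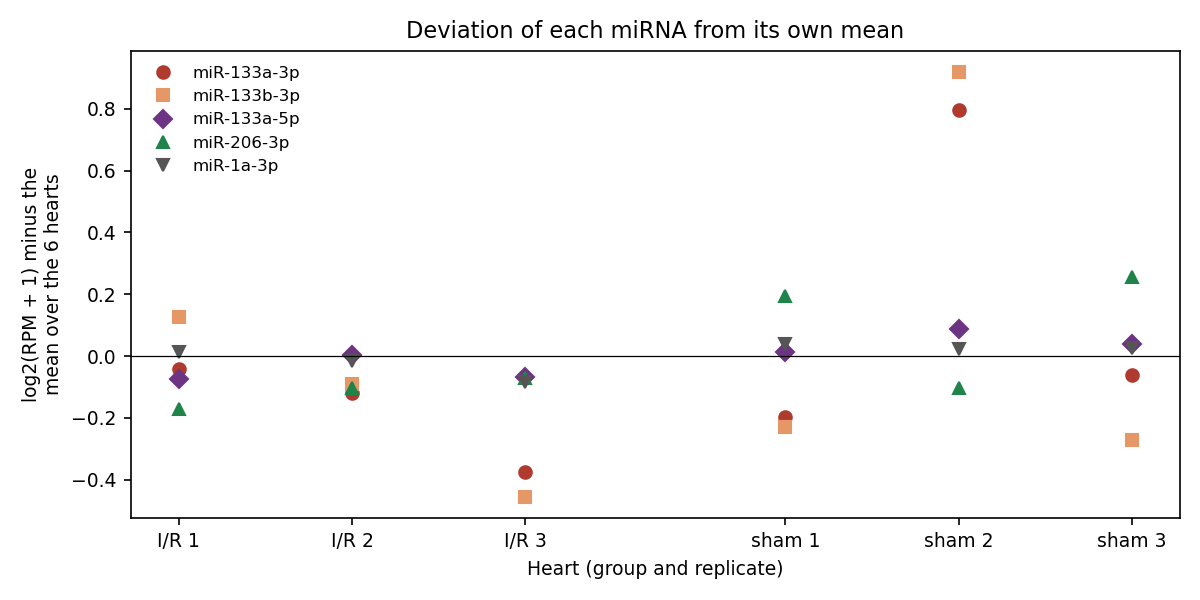
Deviation of log2(RPM + 1) from the mean over the 6 hearts, for 5 names, with I/R hearts left of sham hearts. miR-133a-3p and miR-133b-3p are highest in sham replicate 2 and lowest in I/R replicate 3, where miR-133a-5p and miR-1a-3p stay within 0.1 of their means.

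With the cut-off set by its own miR-133a-3p, sham replicate 2 had more names far above its group than the other libraries. That cut-off was taken from this heart, so the counts are descriptive only. On the log2 scale miR-133a-3p was 0.93 above the mean of the other 2 sham hearts there and miR-133b-3p was 1.17 above. In this heart 12 of the 409 names tested were at least as far above as miR-133a-3p, itself included. Among the 114 names with a mean of at least 100 RPM there were 3, so most of the 12 were scarcer names. Over all 409 names, the counts were 2, 5 and 6 in I/R replicates 1 to 3, and 1 and 2 in sham replicates 1 and 3. Names at least as far below were 4, 6 and 2 in I/R replicates 1 to 3, and 3, 4 and 2 in sham replicates 1 to 3. Sham replicate 2 had sums of 144 RPM for the 5 leukocyte names and 47645 RPM for the 4 smooth muscle names. The other sham hearts had 109 to 116 and 36592 to 39058 RPM. Its 8 other muscle names summed to 8126 RPM, mostly miR-499-5p at 5217 RPM, against 9017 and 9483 RPM. Its miR-208a-5p, at 3.39 RPM, was the highest of the sham hearts. Its endothelial and fibroblast sums were also the highest of the sham hearts, at 27579 and 24731 RPM, the latter against 24666 RPM in sham replicate 3. Its red blood cell sum of 5.76 RPM lay between 3.33 and 6.96 RPM in the others. The smooth muscle sum was mostly miR-143-3p, at 46661 RPM. Among the sham hearts, miR-145a-3p and miR-142a-3p were lowest there, at 883 and 0.904 RPM. The part of these cells in the miR-133 excess was not tested.

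Compared with all names tested, the cluster miRNAs lay on the lower side in I/R hearts, and none passed. Of the 6 tested, 0 had an adjusted p under 0.05 in limma, beside 0% of the 409 names, and 0 had an unadjusted p under 0.05, beside 29 higher and 1 lower of all names. edgeR and DESeq2 on recovered reads called 0 of the 6 too, and over all names they called 0 and 2. At an unadjusted p under 0.05 edgeR had 3 of the 6, namely both miR-1 names and miR-133a-3p, beside 26 of all 409 names. DESeq2 had 1 of the 6, but its count over all names was not taken, so nothing is read from it. All 6 fold changes were below 0, where 29.8% of all names were. The median was -0.16 on the log2 scale, beside 0.10 for all names. The 6 are not separate measurements, since the miR-1 names held reads in a fixed proportion and the miR-133 3p names may share some.

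Levels did not overlap between groups for 3 of the 6, all lower in I/R hearts, and these were miR-133a-5p and both miR-1 names. Among all names tested, 3.91% did not overlap and were lower, while 11.2% did not overlap and were higher. The median over all names depended on how libraries were scaled, and was 0.10 as deposited, 0.033 with totals taken without the miR-1 names, 0.0090 with median-ratio and -0.0061 with TMM scaling. Over the same scalings the median of the 6 was -0.16, -0.23, -0.26 and -0.27. With TMM scaling the log2 fold changes were -0.17 for miR-1a-3p, -0.21 for miR-133a-5p and -0.47 for miR-133a-3p, and quantile normalization set both miR-1 names to 0.

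**Figure D4:**
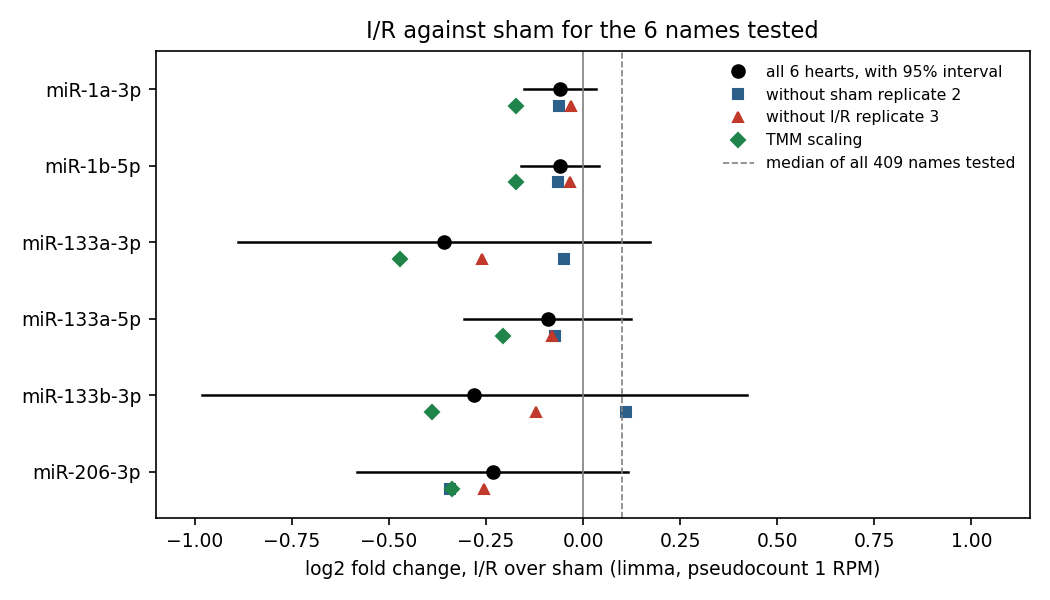
limma log2 fold changes of I/R over sham for the 6 names tested, with 95% intervals (black), and below each the value without sham replicate 2 (blue square), without I/R replicate 3 (red triangle) and with TMM scaling (green diamond). All black points lie left of 0, every interval crosses 0, and for miR-133b-3p the blue square lies right of 0.

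The other muscle miRNAs, which come from hairpins outside the clusters, had fold changes on both sides of 0, each smaller than its SE. Of 8 names, 6 were tested and 0 passed in limma, with 3 fold changes below 0 and 3 above. miR-208a-3p, from an intron of Myh6, had a log2 fold change of -0.10 (SE 0.11), and miR-499-5p, from an intron of Myh7b, had 0.018 (SE 0.089). miR-208a-5p and miR-208b-3p, at 1.69 ± 0.095 and 2.63 ± 0.96 RPM in I/R and 1.89 ± 1.33 and 2.65 ± 0.76 RPM in sham hearts, had -0.0067 (SE 0.31) and -0.020 (SE 0.25). miR-486a-5p and miR-486b-5p, both from the Ank1 locus, had 0.091 (SE 0.12) and 0.092 (SE 0.12). Both ranked the 6 hearts in the same order, so they may not be separate measurements. Whether these differed from the cluster miRNAs in their response was not tested.

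The names with the most similar pattern over the 6 libraries were ranked by the root mean square difference of log2 deviations, among 403 names outside the clusters. For miR-133a-3p these were miR-145a-5p (0.12), miR-29c-5p (0.14) and miR-3102-3p (0.15), beside a spread of 0.37 for miR-133a-3p itself. miR-145a-5p was at 39.7, 41.8 and 37.8 RPM in I/R hearts and at 32.6, 78.0 and 40.4 RPM in sham hearts, with the same high sham replicate 2. For miR-1a-3p they were miR-19b-3p (0.028), miR-378d (0.034) and miR-24-1-5p (0.046), where its own spread was 0.041, so these are names with little variation. For miR-206-3p they were miR-30e-3p (0.086), miR-26b-3p (0.11) and miR-31-5p (0.11), beside a spread of 0.16.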

How the data were processed

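Small RNA libraries of 3 I/R and 3 sham hearts were read from 1 table. The deposited signal values, called FPKM in the table's name, are whole multiples of 1 step per library and sum to the same total, as reads per 1000000 divided by a constant 23.0 nt would. Dividing by the step gave whole reads for 100% of values (tolerance 0.01 reads). The submitters' processing notes name fastp 0.23.0, bcl2fastq 2.19.1.403 and the build mm10. How reads were aligned, annotated, assigned to a strand or shared between matches is not given in the sources used here. The labels' protocol describes poly(A) mRNA kits.

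log2(RPM + 1) was tested with limma 3.58.1 (R 4.3.3, mean-variance trend), two-sided, with Benjamini-Hochberg adjustment over 409 names that averaged 1 RPM or more and had reads in at least 3 libraries. A fold change on this scale understates that of scarce names. Shares and ratios had exact permutation tests over hearts. edgeR 4.0.16 with TMM and DESeq2 1.42.0 on recovered counts, other scalings, pseudocounts, filters and left-out libraries were alternatives to the deposited scaling. The fits were tested on simulated data.

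All 8 cluster names are named, with 8 other muscle names, the other names of the hairpins and the 3 most similar names for each of 3 miRNAs. Members and lists were chosen with earlier results of these data known. Deviations of same-numbered libraries correlated at 0.14, 0.28 and 0.16, all above 0.1, against -0.19 to 0.07 for other numbers. The labels do not say what a number marks. The main tests therefore ignore the replicate number, and values with it as a block or pairing are given as an alternative.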

Additional observations from a re-analysis of the deposited data

How the results depend on the processing

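No cluster miRNA was called under any of the 13 other settings or with any library left out, and limma, edgeR and DESeq2 adjusted p ran from 0.327 to 1 over them. With the replicate number as a block the log2 fold changes were the same and adjusted p was 0.327 for miR-133a-3p (unadjusted 0.0335) and 0.614 to 0.778 for the others, so no call on a cluster miRNA changed. Of all names, the count called higher was 4 with the block, 2 with the block and median-ratio scaling, 2 in DESeq2, 1 without a filter and 0 to 1 with a library left out (1 without sham replicate 2), against 0 as reported. With libraries left out, the log2 fold change ran from -0.55 to -0.049 for miR-133a-3p, from -0.49 to 0.11 for miR-133b-3p, from -0.34 to -0.16 for miR-206-3p, from -0.12 to -0.071 for miR-133a-5p and from -0.080 to -0.032 for each miR-1 name. Differences of log2 ratios ran from -0.49 to 0.014 for miR-133a-3p over miR-1a-3p, from -0.32 to 0.45 for miR-133b-3p over miR-206-3p (0.13 without I/R replicate 3) and from -0.022 to 0.44 for the miR-133a arms. Differences of shares ran from -3.07 to -1.25 points for the miR-1 names in all reads, from -0.294 to 0.0370 points for miR-133a-3p in the miR-133 sum and from -0.0160 to 0.0116 points for miR-1a-3p in the miR-1 sum. The cause of these changes of sign was not tested, beyond the library left out. Depth limits the 5p arms of miR-1a, at 0 to 6 reads a library.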
